A study of Mus musculus with 2 samples.

Results

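The Ass1/Slc2a6-rich cells are the 111 sorted brain cells of repopulating mice with the highest share of RNA from 7 genes, out of 553 retained barcodes of that library and 1162 in the series. Repop D5 barcodes entered with 500 genes or more and a mitochondrial (mt-) share below 10% of UMIs, unique molecular identifiers that each stand for 1 captured RNA molecule. They were ranked by the summed share of their UMIs from Fam19a1, Ch25h, Ass1, Slc2a6, Kcnn4, Pdlim7 and Gpr84. The highest 20% were taken, and the other 442 Repop D5 barcodes are the cells they are compared with. The Repop D5 library pooled 6 adult C57BL/6J mice that were fed the Csf1r inhibitor PLX5622 for 14 days, with 5 days on control diet after it. The CD library pooled 4 adult C57BL/6J mice kept on control diet for 19 days and gave 609 barcodes. In both, CD11b+/CD45+ cells of the brain without uptake of the dye 7-AAD were sorted and loaded on the 10x Genomics droplet system. The gate takes microglia and other myeloid cells alike.

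Microglia, the resident macrophages of the brain, depend on Csf1r signalling for survival. When an inhibitor of this receptor is withdrawn, the emptied tissue is refilled by dividing cells that take on the resting, homeostatic programme again over the following weeks. Ass1 joins citrulline to aspartate on the way to arginine, and so lets macrophages recycle the citrulline left by nitric oxide synthesis. Slc2a6 belongs to the glucose transporter family and is known from lysosomal membranes of activated macrophages.

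Each group is 1 library of pooled mice, so there is no test or p-value, and the spread between mice is unknown. Levels are given as CPM, the UMIs of a gene summed over the barcodes of a set and scaled to a common total. The ratio of a gene is its CPM in the Ass1/Slc2a6-rich cells over its CPM in the other Repop D5 barcodes. Its exact 95% interval covers counting error only. All 7 genes and every other gene were read from the same barcodes that were ranked, so the values describe these cells and support nothing beyond them. The Ass1/Slc2a6-rich cells had a median of 16681 UMIs and 3783 genes, against 16206.5 UMIs and 3636.5 genes in the other Repop D5 barcodes and 5982 UMIs and 2147 genes in CD. Mitochondrial genes took a median of 4.66% of UMIs in the Ass1/Slc2a6-rich cells, 4.81% in the other Repop D5 barcodes and 2.00% in CD. The 2 barcode lists share 1 barcode sequence.

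The 150 bases in front of the outermost annotated start of Ass1 and Slc2a6, the genes that name these cells, of Kcnn4, a rule gene with motif matches, and of Ccl12, the most abundant gene that was higher, are printed from the RefSeq promoter table (GRCm38.p6), each 5′ to 3′ on the strand of its gene. The windows are chr2:31470057-31470206 (plus strand), chr2:27027999-27028148 (minus), chr7:24370113-24370262 (plus) and chr11:82101695-82101844 (plus), in the order printed. Capitals mark matches on either strand to AP-1 (TGANTCA), C/EBP (TTGCNNAA), PU.1 (GAGGAA), E-box (CACGTG) or NF-kB, of which only those in Kcnn4 and Ccl12 were found.
Ass1: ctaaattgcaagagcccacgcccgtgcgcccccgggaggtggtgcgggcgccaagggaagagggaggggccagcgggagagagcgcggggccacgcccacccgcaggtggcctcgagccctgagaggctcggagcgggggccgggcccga
Slc2a6: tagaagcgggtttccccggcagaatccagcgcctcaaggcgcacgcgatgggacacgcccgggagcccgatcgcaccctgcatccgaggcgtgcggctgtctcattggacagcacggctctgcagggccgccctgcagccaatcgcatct
Kcnn4: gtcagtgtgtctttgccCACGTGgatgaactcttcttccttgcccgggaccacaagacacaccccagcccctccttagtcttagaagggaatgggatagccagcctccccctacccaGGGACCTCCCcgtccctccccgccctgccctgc
Ccl12: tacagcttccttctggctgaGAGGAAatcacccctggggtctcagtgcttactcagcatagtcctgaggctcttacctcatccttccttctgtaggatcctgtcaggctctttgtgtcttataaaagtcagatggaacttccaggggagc

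The Kcnn4 window holds an E-box and, nearer to the start, an NF-kB match, and the Ccl12 window holds a PU.1 match. The 150 bases before the RefSeq start were also searched in the 19 genes with an entry, out of the 23 made up of the 7 rule genes, the 15 genes with the highest ratios and Nes. NF-kB matched in 3 of the 19 (Cxcl10, Kcnn4 and Pdlim7), against 4.60% of 32851 promoter windows of that length. PU.1 matched in 3 (Ccl12, Tnf and Lrba), against 14.5% of all windows, and E-box in 2 (Ass1, in bases nearer to its RefSeq start than the window printed, and Kcnn4), against 4.30%. AP-1 matched in 1 (Cxcl10) and C/EBP in 1 (Ch25h), against 4.24% and 5.46% of all windows. A match is a run of letters and not a site shown to be used.

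The ranking value ran without a break from the Ass1/Slc2a6-rich cells into the rest of the library. The summed share of the 7 genes was between 0.0894% and 0.352% of a barcode's UMIs in the Ass1/Slc2a6-rich cells, with a median of 0.111%. It was between 0% and 0.0888%, with a median of 0.0462%, in the other Repop D5 barcodes. In CD it was between 0% and 0.161%, with a median of 0.00395%. The lowest Ass1/Slc2a6-rich cells had 0.0894%, 0.0896% and 0.0900%, and the nearest of the other Repop D5 barcodes had 0.0888%, 0.0888% and 0.0887%. Of the 609 CD barcodes, 5 stood at or above the lowest Ass1/Slc2a6-rich cell (0.821%, exact 95% interval 0.267 to 1.91). The counts behind a share are small. An Ass1/Slc2a6-rich cell held a median of 22 UMIs of the 7 genes (5 to 65), another Repop D5 barcode 7 (0 to 72) and a CD barcode 1 (0 to 12). When every barcode was thinned to 3000 UMIs, 74 of 111 Ass1/Slc2a6-rich cells had 3 or more UMIs of the 7 genes (66.7%), against 85 of 442 other Repop D5 barcodes (19.2%) and 8 of 599 CD barcodes (1.34%). Thinning left out 10 CD barcodes and 0 of the other sets.

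**Figure D1:**
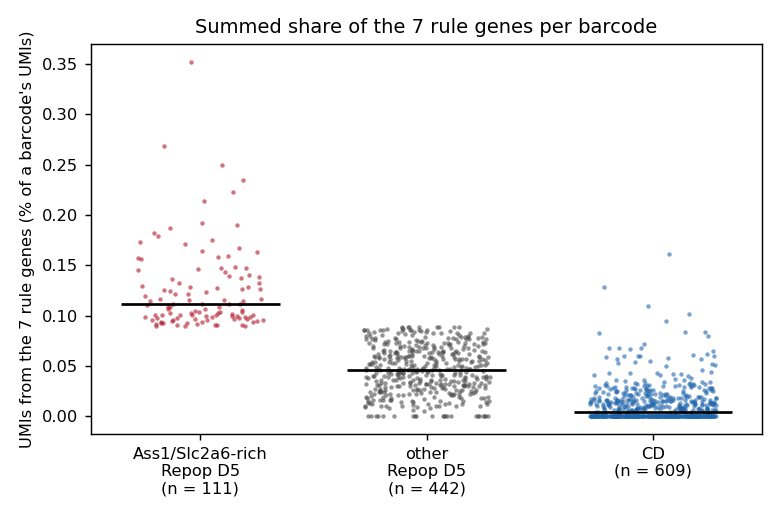
Summed share of UMIs from the 7 rule genes, in percent, for each barcode of the Ass1/Slc2a6-rich cells, the other Repop D5 barcodes and CD. Each point is 1 barcode and the line is the median of its set (0.111%, 0.0462% and 0.00395%). The Repop D5 points form 1 range divided at the limit, with the lowest Ass1/Slc2a6-rich cell at 0.0894% and the highest other barcode at 0.0888%.

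The 7 rule genes have separate roles. Gpr84, a receptor of medium-chain fatty acids on activated macrophages, had 448 CPM in the Ass1/Slc2a6-rich cells, 175 CPM in the other Repop D5 barcodes and 91.5 CPM in CD, and made up 37.3% of the rule gene UMIs of the Ass1/Slc2a6-rich cells. Ass1 (ENSMUSG00000076441, chr2:31470207-31520672) had 186 CPM in the Ass1/Slc2a6-rich cells, 72.0 CPM in the other Repop D5 barcodes and 1.82 CPM in CD. Slc2a6 (ENSMUSG00000036067, chr2:27021363-27027998) had 182 CPM in the Ass1/Slc2a6-rich cells, 107 CPM in the other Repop D5 barcodes and 2.64 CPM in CD. In CD, Ass1 and Slc2a6 were near 0 while Gpr84 was not. Ch25h, which makes an oxysterol from cholesterol, had 139 CPM in the Ass1/Slc2a6-rich cells, 57.0 CPM in the other Repop D5 barcodes and 2.15 CPM in CD. Fam19a1, which encodes a secreted chemokine-like protein best known from neurons, had 106 CPM in the Ass1/Slc2a6-rich cells, 19.0 CPM in the other Repop D5 barcodes and 0.495 CPM in CD, on 3 CD counts. Kcnn4, a calcium-activated potassium channel, had 70.0 CPM in the Ass1/Slc2a6-rich cells, 41.5 CPM in the other Repop D5 barcodes and 4.62 CPM in CD. Pdlim7, an actin-associated scaffold protein with LIM domains, had 69.6 CPM in the Ass1/Slc2a6-rich cells, 39.6 CPM in the other Repop D5 barcodes and 3.96 CPM in CD. These 7 differences between the Repop D5 sets follow from the ranking itself.

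The 7 genes were seldom all detected in the same cell. The Ass1/Slc2a6-rich cells held a UMI in a median of 5 of the 7 genes (1 to 7), and 13 of 111 held all 7. The other Repop D5 barcodes held a median of 4 (0 to 7), and 17 of 442 held all 7. Gpr84 was the rule gene with the most UMIs in 65 Ass1/Slc2a6-rich cells, Fam19a1 in 13, Ass1 in 10, Slc2a6 in 7 and Ch25h in 6, with ties in 10 and none led by Kcnn4 or Pdlim7. Ass1 had between 0 and 25 UMIs with a median of 2 in an Ass1/Slc2a6-rich cell, against 0 to 16 with a median of 1 in another Repop D5 barcode. Slc2a6 had between 0 and 13 UMIs with a median of 3 in an Ass1/Slc2a6-rich cell, against 0 to 12 with a median of 1. The ranges overlap for both genes. At a median of 22 UMIs of the 7 genes per Ass1/Slc2a6-rich cell, the part of sampling in low counts of single genes was not tested.

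Each rule gene was also read in a ranking by the other 6, which the gene itself did not enter. The ratio of Fam19a1 was 5.61 (4.58 to 6.88) with the gene in the rule and 1.88 (1.52 to 2.32) with it left out. Ass1 had 2.59 (2.28 to 2.93) in the rule and 1.70 (1.48 to 1.94) left out. Gpr84 had 2.55 (2.36 to 2.77) in the rule and 1.61 (1.48 to 1.76) left out. Smaller values remained for Pdlim7, at 1.37 (1.11 to 1.68), and for Slc2a6, at 1.22 (1.07 to 1.39). For Ch25h, at 1.16 (0.976 to 1.37), and Kcnn4, at 1.09 (0.879 to 1.35), the interval reaches 1. Of the 7 genes that define the label, 5 thus stood higher where the other 6 were high, and the data do not show this for Ch25h and Kcnn4. Between 83 and 102 of the 111 cells were the same when 1 gene was left out, the lowest number without Gpr84. With Gpr84 left out the ratios of Ccl2 and Ccl12 were smaller, and those of Cxcl10 and the S phase list turned, as given with those results.

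**Figure D2:**
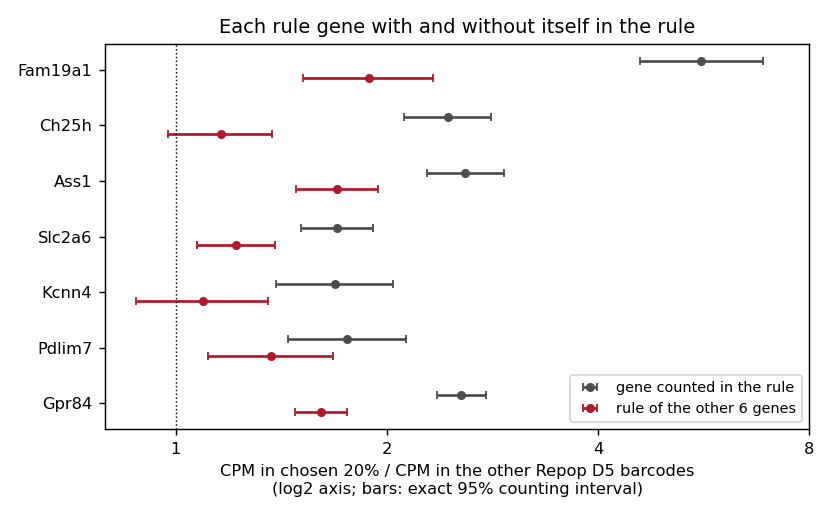
Ratio of CPM in the chosen 20% over the other Repop D5 barcodes for each rule gene, on a log2 axis, with exact 95% counting intervals as bars. Grey points count the gene in the rule, from 1.69 for Kcnn4 to 5.61 for Fam19a1, and red points rank by the other 6 genes, from 1.09 for Kcnn4 to 1.88 for Fam19a1.

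Nes, the intermediate filament gene of neural progenitors (ENSMUSG00000004891, chr3:87971078-87980451), stood above the other Repop D5 barcodes. It had 90.7 CPM in the Ass1/Slc2a6-rich cells, 62.9 CPM in the other Repop D5 barcodes and 3.14 CPM in CD, from 202, 554 and 19 UMIs. The ratio was 1.44 (1.22 to 1.70), short of the 1.5 used here to count a gene as higher. Per barcode, Nes had 0 to 7 UMIs in the Ass1/Slc2a6-rich cells and 0 to 11 in the other Repop D5 barcodes, with a median of 1 in each, so that the sets overlap almost wholly. After thinning, a Nes UMI was found in 22 of 111 Ass1/Slc2a6-rich cells (19.8%, 12.9 to 28.5), 65 of 442 other Repop D5 barcodes (14.7%, 11.5 to 18.4) and 3 of 599 CD barcodes (0.501%, 0.103 to 1.46). Without thinning the shares were 73.0%, 54.3% and 2.63%. The 55 Repop D5 barcodes richest in monocyte, neutrophil and lymphocyte markers stood at 20.0% after thinning, at a median depth of 13301 UMIs against 16681 UMIs in the Ass1/Slc2a6-rich cells. Those types are not known to express Nes, but the 55 barcodes are no clean background, since a marker share of 0.142% of UMIs was enough to be among them. The shares of the Repop D5 sets were no higher than that level and are not read as a difference. Among the neural progenitor markers, Pax6, Dcx, Sox11 and Prom1 were at 0 UMIs in the Ass1/Slc2a6-rich cells, and only Nes reached 10 CPM. Vim, the vimentin gene, had 551 CPM in the Ass1/Slc2a6-rich cells, 437 CPM in the other Repop D5 barcodes and 33.4 CPM in CD, with a ratio of 1.26 (1.18 to 1.35). Lmna, which encodes the nuclear lamins A and C, was the 1 of 12 measured intermediate filament and tubulin genes counted as higher, at 35.9 CPM in the Ass1/Slc2a6-rich cells and 19.3 CPM in the other Repop D5 barcodes (ratio 1.86, 1.41 to 2.44).

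Outside the 7 genes, few genes set the Ass1/Slc2a6-rich cells apart. Of 2658 genes with at least 50 CPM in either Repop D5 set, 17 had a ratio of 1.5 or more (0.64%, called higher here) and 27 one of its inverse or less (1.02%, called lower), each interval lying to 1 side of equality. This is a description by size. The median log2 ratio over all 2658 genes was 0.029. The count of higher genes depends on how the cells are chosen and weighed, and was between 9 and 146 under the alternative rankings, filters and weightings.

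Chemokines and inflammatory receptors led the higher genes. Ccl2 (chr11:82035571-82037453), which draws monocytes through the receptor Ccr2, had 616 CPM in the Ass1/Slc2a6-rich cells, 282 CPM in the other Repop D5 barcodes and 276 CPM in CD. Its ratio was 2.18 (2.04 to 2.33), and 2.03 without the richest barcode of each gene, left out in both Repop D5 sets. With Gpr84 left out of the rule it was 1.87, the lowest over the alternatives. Ccl12 (chr11:82101845-82103400), a mouse chemokine of the same gene cluster, had 1694 CPM in the Ass1/Slc2a6-rich cells, 787 CPM in the other Repop D5 barcodes and 278 CPM in CD, with a ratio of 2.15 (2.07 to 2.24). The ratio of Ccl12 was 1.65 with Gpr84 left out of the rule, also its lowest. The summed CPM of Ccl2 was alike in the other Repop D5 barcodes and CD, but its thinned share of barcodes with a UMI was 61.3% in the Ass1/Slc2a6-rich cells, 42.3% in the other Repop D5 barcodes and 21.0% in CD. Single CD barcodes reached 212 Ccl2 UMIs per 10000, and the median CD barcode had 0. Per barcode, Ccl12 had 0 to 198 UMIs with a median of 19 in the Ass1/Slc2a6-rich cells, against 0 to 161 with a median of 7 in the other Repop D5 barcodes. Ccl2 had 0 to 132 UMIs with a median of 5, against 0 to 67 with a median of 2. The sets overlap for both, and the medians differ.

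C5ar1, the receptor of the complement fragment C5a, had 303 CPM in the Ass1/Slc2a6-rich cells, 163 CPM in the other Repop D5 barcodes and 179 CPM in CD, with a ratio of 1.85 (1.69 to 2.03). Its thinned share of barcodes with a UMI was 58.6% in the Ass1/Slc2a6-rich cells and 34.8% in the other Repop D5 barcodes, against 32.7% in the 55 barcodes richest in other markers and 37.1% in CD. Tlr2, a Toll-like receptor for bacterial lipoproteins, had 255 CPM in the Ass1/Slc2a6-rich cells, 150 CPM in the other Repop D5 barcodes and 61.3 CPM in CD (ratio 1.70, 1.54 to 1.87). For C5ar1 the other Repop D5 barcodes stood near CD in both measures. Tnf, the gene of tumour necrosis factor, had 103 CPM in the Ass1/Slc2a6-rich cells, 63.9 CPM in the other Repop D5 barcodes and 31.4 CPM in CD (ratio 1.62, 1.38 to 1.89), with 53 of its 230 UMIs in 1 barcode and a ratio of 1.29 without the richest barcode of each gene. Its thinned share of barcodes with a UMI ran the other way, at 11.7% in the Ass1/Slc2a6-rich cells and 14.7% in the other Repop D5 barcodes. Over the alternatives the ratio of Tnf was between 1.06 and 2.04. Cxcl10, an interferon-induced chemokine, had 127 CPM in the Ass1/Slc2a6-rich cells, 73.7 CPM in the other Repop D5 barcodes and 10.7 CPM in CD (ratio 1.73, 1.5 to 1.99). Of its 284 UMIs in the Ass1/Slc2a6-rich cells, 120 came from 1 barcode. Without the richest barcode of each Repop D5 set the ratio was 1.06 (0.889 to 1.27). It was 0.579 with Gpr84 left out of the rule, so the difference in Cxcl10 rests on 1 barcode.

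The other higher genes had ratios between 1.52 and 1.62. Exosc2, a subunit of the RNA exosome, had 87.5 CPM in the Ass1/Slc2a6-rich cells and 54.0 CPM in the other Repop D5 barcodes, and Nop16, a nucleolar protein of ribosome assembly, 51.2 CPM and 32.2 CPM. Smn1, which serves the assembly of splicing particles, had 66.4 CPM in the Ass1/Slc2a6-rich cells and 42.3 CPM in the other Repop D5 barcodes. Slc7a5, a transporter of large neutral amino acids, had 53.0 CPM in the Ass1/Slc2a6-rich cells and 33.8 CPM in the other Repop D5 barcodes. S100a4, a calcium-binding protein, had 159 CPM in the Ass1/Slc2a6-rich cells and 104 CPM in the other Repop D5 barcodes. Lrba, a vesicle-trafficking protein, had 63.7 CPM in the Ass1/Slc2a6-rich cells, 41.8 CPM in the other Repop D5 barcodes and 171 CPM in CD. On thinned counts S100a4 and Lrba came to ratios of 0.894 and 0.914. The remaining ones were the kinase gene Plk3, Armc1, the small GTPase gene Rhoc, Ppan, a gene of ribosome assembly, and Lilrb4a, an inhibitory receptor gene with a near-identical copy that makes its count uncertain.

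Most of the genes with the lowest ratios were neutrophil or antigen presentation genes. S100a8, a calprotectin subunit of neutrophils, had 278 CPM in the Ass1/Slc2a6-rich cells, 1149 CPM in the other Repop D5 barcodes and 6560 CPM in CD (ratio 0.242, 0.223 to 0.263). Wfdc21, Camp, Ngp, Lcn2, S100a9 and Retnlg, which neutrophils also carry, had ratios between 0.172 and 0.318. The 10 neutrophil markers summed to 658 CPM in the Ass1/Slc2a6-rich cells, 2528 CPM in the other Repop D5 barcodes and 13370 CPM in CD, and 9 of the 9 that reached 10 CPM were lower. Per barcode, the summed level per 10000 UMIs was 0 to 15.3 with a median of 6.58 in the Ass1/Slc2a6-rich cells, against 0 to 4029 with a median of 6.56 in the other Repop D5 barcodes. The medians are alike and the difference lies in a few barcodes. Without the 55 barcodes richest in other markers, 9 of them Ass1/Slc2a6-rich, the list's ratio was 0.996 (0.937 to 1.06) and S100a9, Ngp and Lcn2 had 1.05, 1.08 and 1.03. The count of lower genes was then 16 of 2652, of which 14 were among the 27.

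Genes outside the neutrophil list were lower as well. H2-Aa, H2-Eb1, H2-Ab1 and Cd74, which build the MHC class II complex and its invariant chain, were lower, 4 of 8 measured in their list. Of 6 measured border macrophage markers 5 were lower, Mrc1, Pf4, F13a1, Ms4a7 and Cbr2, and of 8 monocyte markers 5, Ccr2, Ly6c2, Chil3, Ifitm6 and Hp. Among all 7420 genes with at least 10 CPM, the minimum used for lists, 2.68% were lower. The border macrophage markers summed to 198 CPM in the Ass1/Slc2a6-rich cells, 269 CPM in the other Repop D5 barcodes and 1390 CPM in CD (ratio 0.738, 0.666 to 0.818), with Lyve1 and Cd209f at 0 UMIs in the Ass1/Slc2a6-rich cells. Per 10000 UMIs they were at 0 to 8.15 in a single Ass1/Slc2a6-rich cell, against 0 to 82.5 in another Repop D5 barcode. The medians were 1.80 and 1.58, so the highest barcodes were lower and the median barcode was not. The monocyte markers summed to 235 CPM in the Ass1/Slc2a6-rich cells and 353 CPM in the other Repop D5 barcodes (ratio 0.667, 0.606 to 0.731). Without the 55 barcodes, picked partly on monocyte markers, 1 of 4 measured monocyte markers was lower (list ratio 0.778, 0.686 to 0.881). For the border macrophage markers it was then 2 of 3 (list ratio 0.821, 0.736 to 0.914). Cd209a, the 1 dendritic cell marker at 10 CPM, had 0.898 CPM in the Ass1/Slc2a6-rich cells and 13.8 CPM in the other Repop D5 barcodes, and Xcr1 and Clec9a were at 0 UMIs in the Ass1/Slc2a6-rich cells. The 55 barcodes left out were not chosen on border macrophage or dendritic cell markers, and the part of such cells in the class II and Apoe values was not tested. H2-Aa had 26.0 CPM in the Ass1/Slc2a6-rich cells, 83.2 CPM in the other Repop D5 barcodes and 493 CPM in CD (ratio 0.313, 0.235 to 0.409), and 0.319 without the 55 barcodes. Cd74 had 162 CPM in the Ass1/Slc2a6-rich cells, 344 CPM in the other Repop D5 barcodes and 1389 CPM in CD (ratio 0.470). The per-barcode median of the class II list was 7.49 per 10000 UMIs in the Ass1/Slc2a6-rich cells and 7.85 in the other Repop D5 barcodes, and its highest value 27.8 and 923, so the medians were close and the highest barcodes were not. Ramp1, a partner of the receptor of calcitonin gene-related peptide, had 29.6 CPM in the Ass1/Slc2a6-rich cells, 66.6 CPM in the other Repop D5 barcodes and 71.0 CPM in CD (ratio 0.445, 0.339 to 0.574). It had a UMI in 35.1% of the Ass1/Slc2a6-rich cells and 61.5% of the other Repop D5 barcodes. Ypel3, known to slow growth in cultured cells, had 58.4 CPM in the Ass1/Slc2a6-rich cells, 116 CPM in the other Repop D5 barcodes and 353 CPM in CD (ratio 0.503, 0.415 to 0.604). Ramp1 and Ypel3 were thus lower across many barcodes. Apoe, the lipid carrier, had 600 CPM in the Ass1/Slc2a6-rich cells, 1218 CPM in the other Repop D5 barcodes and 7047 CPM in CD (ratio 0.493, 0.465 to 0.521), and 0.541 without the 55 barcodes. Pf4, a chemokine of platelets and border macrophages, had 31.4 CPM in the Ass1/Slc2a6-rich cells, 62.5 CPM in the other Repop D5 barcodes and 429 CPM in CD, and S100a11 had 22.4, 75.7 and 250 CPM in the same order. S100a11 had a ratio of 0.296 over all barcodes and 0.593 without the 55, where it was no longer counted as lower. Over the alternatives the ratio was between 0.182 and 0.368 for H2-Aa, 0.237 and 0.525 for Cd74, 0.320 and 0.681 for Apoe, and 0.445 and 0.929 for Pf4.

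**Figure D3:**
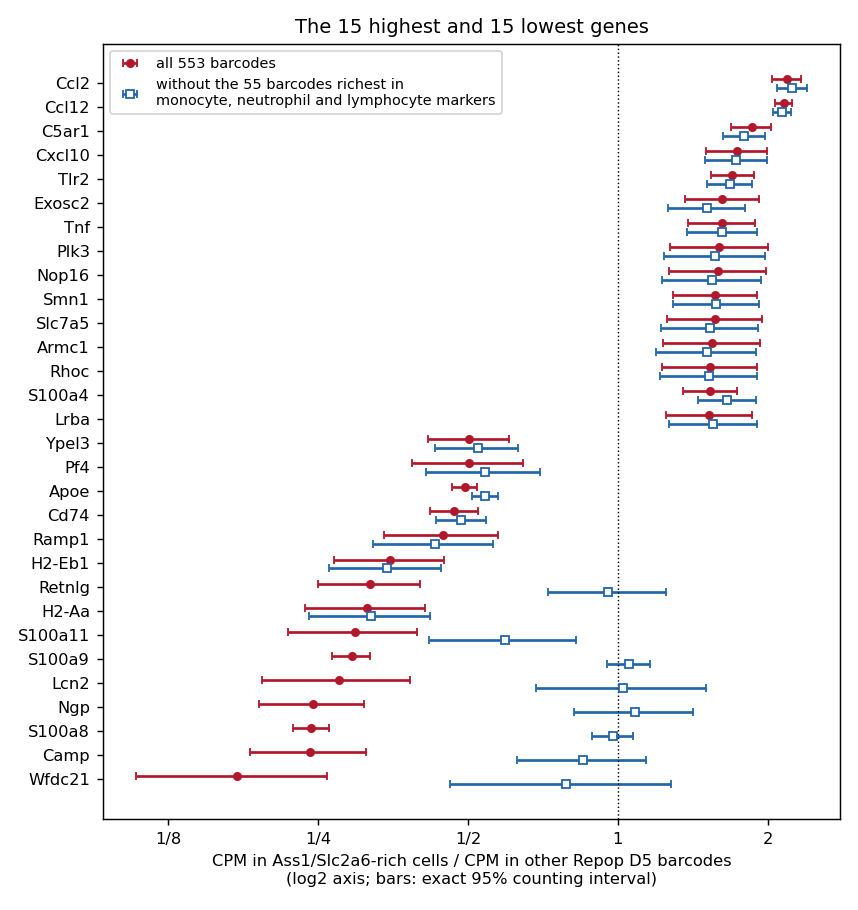
Ratio of CPM in the Ass1/Slc2a6-rich cells over the other Repop D5 barcodes for the 15 genes at each end of the ranking by ratio, on a log2 axis with exact 95% counting intervals. Red points use all 553 barcodes and blue squares leave out the 55 richest in monocyte, neutrophil and lymphocyte markers, which moves S100a9 to 1.05 and leaves Ccl2 at 2.24 and H2-Aa at 0.319.

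Across the whole Repop D5 library the leading genes changed by steps with the rank of a barcode. The 553 barcodes were divided into 5 groups of 110 or 111 by the share of the 7 genes, the last group being the Ass1/Slc2a6-rich cells. From the lowest group to the highest, Ccl12 had 321, 737, 827, 1042 and 1694 CPM and Ccl2 had 158, 265, 298, 348 and 616 CPM. C5ar1 had 94.2, 128, 177, 216 and 303 CPM. All 3 were higher in each group than in the one before it. Nes had 30.2, 62.7, 65.4, 78.2 and 90.7 CPM, with its widest step between the lowest group and the next. Ramp1 had 124, 66.4, 56.5, 45.8 and 29.6 CPM and Ypel3 221, 127, 91.5, 74.0 and 58.4 CPM, in the opposite direction. Apoe had 3187, 1257, 680, 645 and 600 CPM, so its difference lay almost wholly in the 2 lowest groups. The neutrophil markers, at 7531, 3657, 666, 688 and 658 CPM, were high in the same 2 groups. Without the 55 barcodes richest in other markers, they had 649, 674, 611, 642 and 638 CPM. Apoe then still had 2548, 1291, 587, 618 and 574 CPM. The median depth of the groups was 11021, 15930, 20215, 20128.5 and 16681 UMIs, and the part of depth in these values was not tested.

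**Figure D4:**
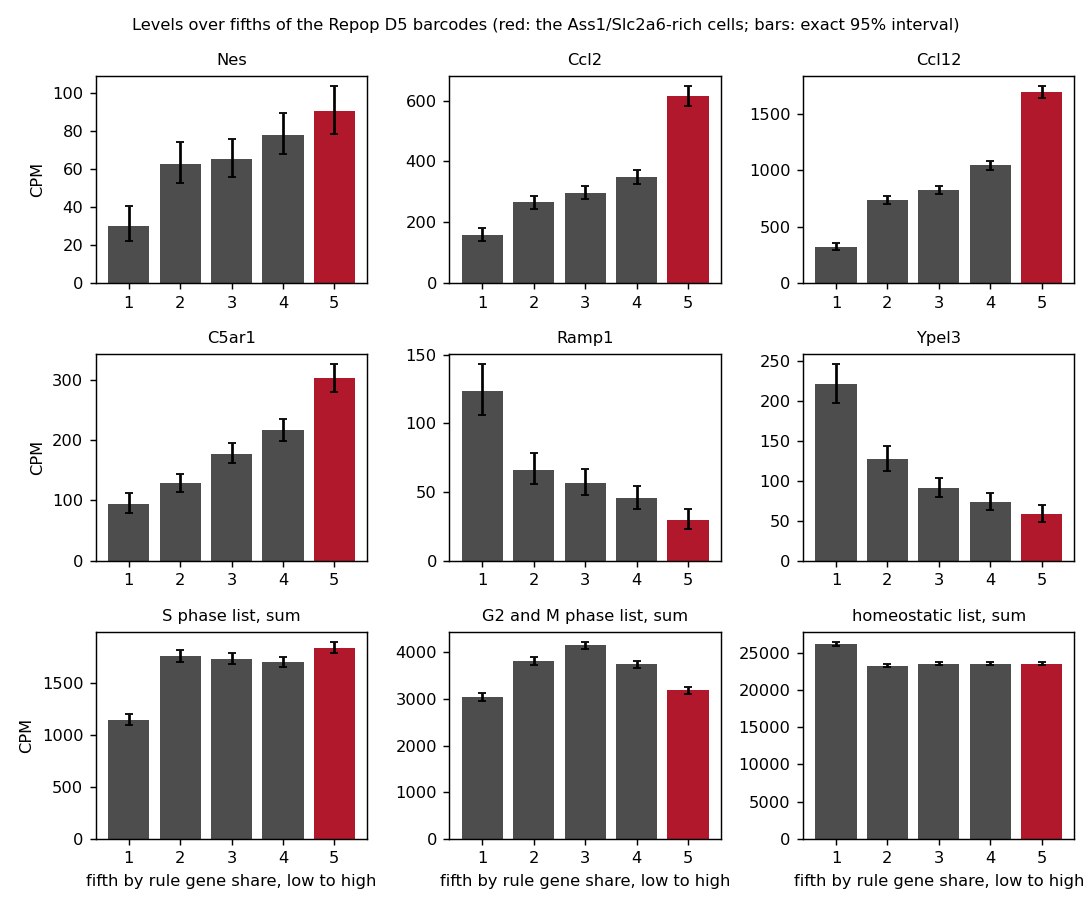
CPM of 6 genes and summed CPM of 3 gene lists over 5 groups of Repop D5 barcodes from the lowest to the highest share of the 7 rule genes, with exact 95% counting intervals. The red bar is the Ass1/Slc2a6-rich cells, with Ccl12 at 1694 CPM, Ramp1 at 29.6 CPM and the homeostatic list at 23509 CPM.

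Cell cycle genes gave mixed values. Mki67, the common marker of cycling cells, had 102 CPM in the Ass1/Slc2a6-rich cells, 127 CPM in the other Repop D5 barcodes and 1.49 CPM in CD, with a ratio of 0.809 (0.698 to 0.933). Over the 5 groups by rule gene share, from lowest to highest, Mki67 had 98.4, 117, 151, 126 and 102 CPM. Top2a, the topoisomerase of dividing cells, had 135 CPM in the Ass1/Slc2a6-rich cells, 155 CPM in the other Repop D5 barcodes and 2.31 CPM in CD (ratio 0.871, 0.766 to 0.988). Both ratios turned, to 1.44 and 1.38 with intervals that include 1, when members were chosen on thinned counts. Pcna, the sliding clamp of replication, had 156 CPM in the Ass1/Slc2a6-rich cells and 158 CPM in the other Repop D5 barcodes (ratio 0.984, 0.873 to 1.11). Lists were read at a minimum of 10 CPM, at which 1.99% of 7420 genes were higher and 2.68% lower. Over those 7420 genes the log2 ratio had a median of 0.012. On the G2 and M phase list, 49 genes were measured, of which 5 were lower and 0 higher. The 5 were Cenpf, Cdca2, Anln, Ckap5 and Cenpe, genes of chromosome segregation and cytokinesis. Ratios below 1 were found for 46 of the 49, and the median log2 ratio was -0.28. The list summed to 3187 CPM in the Ass1/Slc2a6-rich cells, 3766 CPM in the other Repop D5 barcodes and 621 CPM in CD, a ratio of 0.846 (0.825 to 0.868), which was 1.03 on thinned counts. Over the same 5 groups it summed to 3045, 3816, 4150, 3739 and 3187 CPM, so it was highest in the middle group and lowest in the first. Of 41 S phase genes 2 were higher, Dtl and Cdc6, both of replication licensing and its control, and 0 lower, with 33 above 1 and a median log2 ratio of 0.21. The S phase list had a ratio of 1.12 (1.09 to 1.16), which was 0.983 (0.949 to 1.02) with Gpr84 left out of the rule. The S phase list summed to 1846 CPM in the Ass1/Slc2a6-rich cells, 1641 CPM in the other Repop D5 barcodes and 473 CPM in CD, so both Repop D5 sets stood above CD. Over the 5 groups the S phase list summed to 1149, 1764, 1739, 1708 and 1846 CPM, with its widest step between the lowest group and the next.

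The Ass1/Slc2a6-rich cells held the homeostatic microglia genes at nearly the level of the other Repop D5 barcodes. Of 23 measured genes 0 passed in either direction, and the median log2 ratio was -0.0021. The 25 genes of the list summed to 23509 CPM in the Ass1/Slc2a6-rich cells, 23875 CPM in the other Repop D5 barcodes and 103381 CPM in CD, a ratio of 0.985 (0.975 to 0.994). P2ry12, the purinergic receptor of ramified microglia, had 445 CPM in the Ass1/Slc2a6-rich cells, 508 CPM in the other Repop D5 barcodes and 2988 CPM in CD (ratio 0.877, 0.818 to 0.940). Tmem119, a surface protein of microglia, had 858 CPM in the Ass1/Slc2a6-rich cells, 813 CPM in the other Repop D5 barcodes and 2021 CPM in CD (ratio 1.06, 1.00 to 1.11). Cx3cr1, the fractalkine receptor, had 1357 CPM in the Ass1/Slc2a6-rich cells, 1446 CPM in the other Repop D5 barcodes and 5052 CPM in CD (ratio 0.939, 0.902 to 0.977). The differences between the Repop D5 sets are small beside those to CD. Csf1r, the target of PLX5622, had 1382 CPM in both Repop D5 sets and 3259 CPM in CD (ratio 1.00, 0.960 to 1.04). Sall1, a transcription factor of microglial identity, had 46.7 CPM in the Ass1/Slc2a6-rich cells, 54.3 CPM in the other Repop D5 barcodes and 299 CPM in CD (ratio 0.860, 0.689 to 1.07). Of the 13 microglia markers 0 were higher and 0 lower, and all 13 reached 10 CPM, with P2ry12, Tmem119, Cx3cr1 and Sall1 among them. Lymphocyte markers summed to 3.14 CPM in the Ass1/Slc2a6-rich cells, with Cd3e, Cd3d and Cd79a at 0 UMIs. Ccr2, the receptor of monocytes for Ccl2, had 17.1 CPM in the Ass1/Slc2a6-rich cells, 28.7 CPM in the other Repop D5 barcodes and 40.5 CPM in CD (ratio 0.594, 0.411 to 0.838).

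Cytokine and NF-kB genes were higher in part. Of 23 measured genes, 6 were higher, Ccl12, Ccl2, Ccl7, Tnf, Il6 and Nfkb2, and 3 lower, Tnfaip3, Ccl5 and Cxcl2, with a median log2 ratio of 0.28. Nfkb2, a subunit of NF-kB, had 20.6 CPM in the Ass1/Slc2a6-rich cells and 9.19 CPM in the other Repop D5 barcodes (ratio 2.25, 1.53 to 3.26), and Il6, the interleukin 6 gene, 16.2 CPM and 8.85 CPM (ratio 1.83, 1.19 to 2.74). Ccl7, a chemokine neighbour of Ccl2, had 48.9 CPM in the Ass1/Slc2a6-rich cells and 25.9 CPM in the other Repop D5 barcodes, but 67.0% of its UMIs in the Ass1/Slc2a6-rich cells came from 1 barcode. Tnfaip3, an inhibitor of NF-kB signalling, had 11.7 CPM in the Ass1/Slc2a6-rich cells and 18.7 CPM in the other Repop D5 barcodes (ratio 0.623, 0.395 to 0.946), and Cxcl2, a chemokine for neutrophils, 18.9 CPM and 32.0 CPM (ratio 0.589). A single Ass1/Slc2a6-rich cell held 61.9% of that set's Cxcl2 UMIs. For Ccl5, 1 barcode held 41.0% of the UMIs of the other Repop D5 barcodes. Ccl5 had a UMI in 8.11% of the Ass1/Slc2a6-rich cells and 5.66% of the others. Of the 20% of barcodes with the most RNA of this list, 39 were Ass1/Slc2a6-rich, or 35.1% of those cells, against 16.3% of the other Repop D5 barcodes. For the top 20% by S phase genes the shares were 31.5% and 17.2%, and for those by homeostatic genes 18.9% and 20.4%. The cytokine overlap includes the Ccl2 and Ccl12 counts already described.

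Most immediate early and interferon genes had ratios below 1, 15 of 17 and 16 of 18 measured. Of 17 immediate early genes 0 were higher and 6 lower, Fosb, Ier3, Klf4, Zfp36, Dusp1 and Nr4a1, factors and feedback genes switched on within minutes of a stimulus, with a median log2 ratio of -0.25. Fosb had 22.0 CPM in the Ass1/Slc2a6-rich cells, 38.0 CPM in the other Repop D5 barcodes and 185 CPM in CD, and Nr4a1 14.4, 29.1 and 51.4 CPM in the same order. Of 18 type I interferon response genes 1 was higher, Cxcl10, and 4 lower, Ifit1, Ifit3 and Ifi204 among them, with a median of -0.33. Ifit3, an antiviral effector, had 11.7 CPM in the Ass1/Slc2a6-rich cells and 21.7 CPM in the other Repop D5 barcodes. Of 20 disease-associated microglia genes 0 were higher and 1 lower, Apoe, with a median of 0.026. Spp1, the osteopontin gene of that list, had 125 CPM in the Ass1/Slc2a6-rich cells, 113 CPM in the other Repop D5 barcodes and 2.15 CPM in CD (ratio 1.11, 0.969 to 1.27). Cd9, a tetraspanin gene, had 1525 CPM in the Ass1/Slc2a6-rich cells and 1208 CPM in the other Repop D5 barcodes (ratio 1.26, 1.21 to 1.31).

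Few metabolic genes passed the size limit besides the rule genes in these lists, while most had ratios slightly above 1. Of 10 arginine and polyamine genes 2 were higher, the rule gene Ass1 and Slc7a1, the arginine transporter, at 34.6 CPM in the Ass1/Slc2a6-rich cells and 22.6 CPM in the other Repop D5 barcodes (ratio 1.53, 1.16 to 2.00). Asl, the next enzyme after Ass1 towards arginine, had 30.5 CPM in the Ass1/Slc2a6-rich cells and 34.2 CPM in the other Repop D5 barcodes (ratio 0.893, 0.676 to 1.17), and Nos2 and Arg2 were at 0 UMIs in the Ass1/Slc2a6-rich cells. Ass1 entered the ranking and Asl did not, so their ratios cannot be set against each other. Of 19 hexose transport and glycolysis genes only the rule gene Slc2a6 was higher and 0 lower, but 14 had ratios above 1, with a median log2 ratio of 0.22. The list summed to 8037 CPM in the Ass1/Slc2a6-rich cells, 6849 CPM in the other Repop D5 barcodes and 2677 CPM in CD (ratio 1.17, 1.15 to 1.19), of which Slc2a6 made up 182 CPM and 107 CPM in the Repop D5 sets. Slc16a3, the lactate exporter, had 184 CPM in the Ass1/Slc2a6-rich cells and 123 CPM in the other Repop D5 barcodes (ratio 1.5, 1.33 to 1.68), and Slc2a5, a fructose transporter of homeostatic microglia, 71.8 CPM and 93.8 CPM (ratio 0.766). Of 14 ATF4 and amino acid genes 2 were higher, Slc7a5 and Asns, the asparagine synthetase gene, at 10.8 CPM in the Ass1/Slc2a6-rich cells and 5.79 CPM in the other Repop D5 barcodes (ratio 1.86, 1.10 to 3.08).

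Of 22 cholesterol synthesis genes 0 were higher or lower, and 20 had ratios above 1, with a median log2 ratio of 0.29. Sqle, squalene epoxidase, had 80.8 CPM in the Ass1/Slc2a6-rich cells, 57.2 CPM in the other Repop D5 barcodes and 2.48 CPM in CD (ratio 1.41, 1.18 to 1.68), and Msmo1, a sterol oxidase, 107, 74.7 and 28.6 CPM in the same order (ratio 1.44). Over the 5 groups the list summed to 635, 1024, 1162, 1233 and 1292 CPM, most of the difference lying between the lowest group and the next. Of 10 oxysterol and sterol efflux genes the rule gene Ch25h was higher and Abcg1, a cholesterol exporter, lower, at 9.43 CPM in the Ass1/Slc2a6-rich cells, 15.1 CPM in the other Repop D5 barcodes and 85.0 CPM in CD. Of 16 Myc and nucleolar growth genes 3 were higher, Nolc1, Nop16 and Polr1b, and 15 had ratios above 1, with a median of 0.30. Of 36 nuclear-encoded oxidative phosphorylation genes 0 were higher or lower, with a median of -0.0022. Cspg4, the proteoglycan NG2 gene and a marker of oligodendrocyte precursors, had 25.1 CPM in the Ass1/Slc2a6-rich cells, 8.17 CPM in the other Repop D5 barcodes and 0 UMIs in CD (ratio 3.08, 2.13 to 4.42), from 56 and 72 UMIs. Its partners in that list, Pdgfra, Olig1 and Cacng4, were at 0 UMIs in the Ass1/Slc2a6-rich cells.

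**Figure D5:**
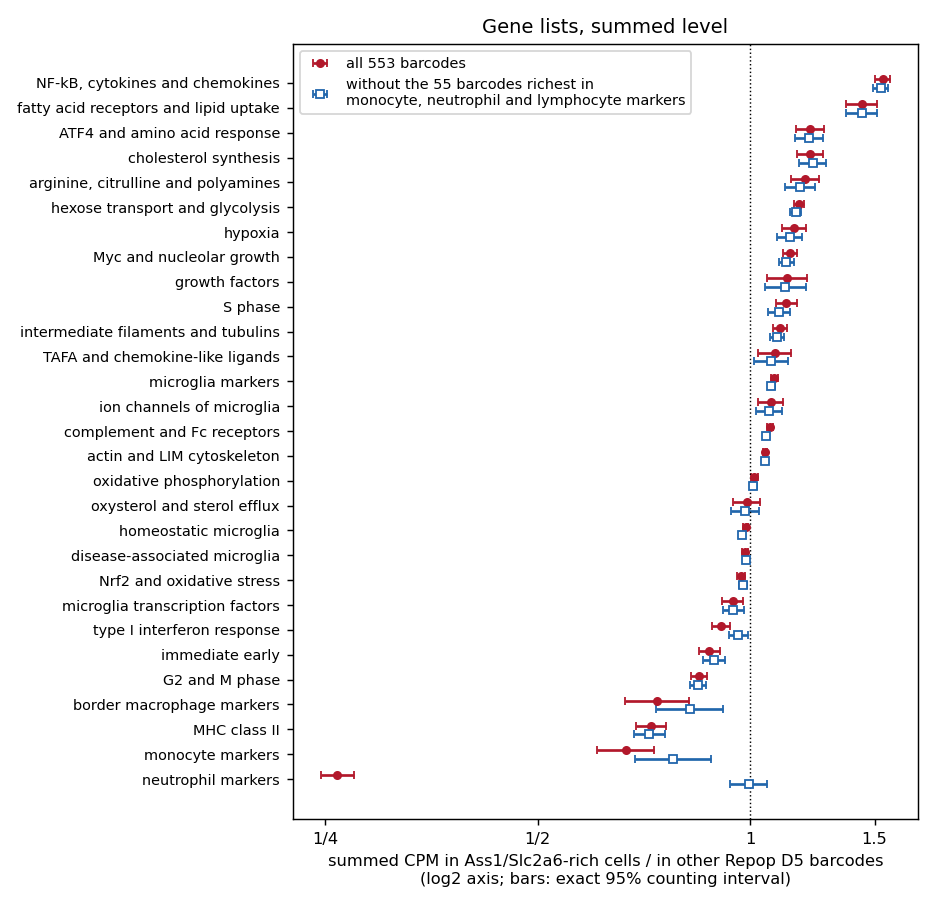
Ratio of the summed CPM of each gene list in the Ass1/Slc2a6-rich cells over the other Repop D5 barcodes, on a log2 axis with exact 95% counting intervals, over all 553 barcodes (red) and without the 55 richest in other cell type markers (blue). The cytokine list is at 1.54, most lists lie near 1, and the neutrophil markers are at 0.260 and, without those 55 barcodes, 0.996. In the cytokine list, Ccl12 and Ccl2 made up 1694 and 616 of 4267 CPM in the Ass1/Slc2a6-rich cells. In the other Repop D5 barcodes they made up 787 and 282 of 2771 CPM, so these 2 genes weigh heavily in its ratio. Rule genes are counted in the lists that hold them, which raises the ratios of those lists through the ranking itself. In the fatty acid receptor and lipid uptake list, at 1.44, Gpr84 made up 448 of 968 CPM in the Ass1/Slc2a6-rich cells. In the other Repop D5 barcodes it made up 175 of 673 CPM.

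The genes most like the ranking were found by their Spearman correlation with the share of the 7 genes over the 553 Repop D5 barcodes after thinning. They were Hspa5 (0.25), Fdps (0.25), Calr (0.24), C5ar1 (0.24) and Eif5a (0.23), with Tuba1b, Gapdh, Ranbp1 and Eif4a1 among those that followed. The count of Gapdh is uncertain because of its near-identical copies. Hspa5 and Calr encode chaperones of the endoplasmic reticulum, Fdps an enzyme of isoprenoid and cholesterol synthesis, and Eif5a and Eif4a1 translation factors. The lowest were Cst3 (-0.28), the gene of cystatin C, Rps29, Gnas, Sepp1 and Lst1. All are weak, and the barcodes share 1 library.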

How the data were processed

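The authors' deposited matrices hold raw counts of UMIs per gene and barcode, over 27998 genes. The build mm10 and the tool Cell Ranger 2.1.0 are named by the submitters' processing notes. How cells were called, and on which annotation release, is not given in the sources used here. The authors' pooled matrix of counts, which keeps 96.8% of the Repop D5 UMIs, was an alternative.

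Cells were filtered and ranked as the report states, which kept 553 of 585 Repop D5 and 609 of 609 CD barcodes. No doublets were removed in the values reported. The members and gene lists were chosen with earlier results of these data known. UMIs were summed over 2227773 UMIs of Ass1/Slc2a6-rich cells, 8810148 of other Repop D5 barcodes and 6055886 of CD. Ratios have exact conditional binomial intervals, and shares exact Clopper-Pearson intervals. UMIs remove PCR copies, and intervals cover counting error only. The steps were tested on simulated data. The genes named are the 15 highest and 15 lowest ratios at 50 CPM with a UMI in at least 10% of the barcodes of the higher set, a preset group of markers and, in each list, the 2 highest, 2 lowest and 2 most abundant genes. Genes in a count of 5 or fewer, and others that a count lists, were chosen after their values were seen. Genes of ribosomal proteins, haemoglobin, mitochondria and the sex chromosomes' markers, and predicted ones, were left out. Lists count genes at 10 CPM, their sums take every listed gene in the files, and their medians are of log2 ratios with 1 CPM added. Coordinates are from GENCODE M21 (GRCm38, mm10), which held 49 of 49 named identifiers. Python 3.11.15, scipy 1.17.1, pandas 2.3.3 and scanpy 1.11.5 (Scrublet) were used. Some genes that these rules name are not reported here.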

Additional observations from a re-analysis of the deposited data

How the results depend on the processing

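No paired analysis was possible because each group is 1 library with no replicates. With 1 library per group only the counting error is known, and a ranking on a median of 22 UMIs leaves the membership of single barcodes uncertain. Of the 111 cells, 63 stayed when members were chosen on thinned counts, 85 with equal weight per rule gene, 83 without Gpr84 and 108 within 2 classes of depth. Scrublet called 15 doublets, of which 0 were Ass1/Slc2a6-rich. The cause of each change below was not tested.

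The ratio of Nes stayed above 1 in all 16 alternatives (1.31 to 1.64), with an interval that included 1 on thinned counts. The main counts are 17 higher and 27 lower genes. The counts of higher genes were 46 at 1000 genes and 5% mt-, 9 for the top 30%, 9 with equal weight per rule gene, 11 without Gpr84 and 9 without the richest barcode of each gene, an alternative chosen after seeing the data. Higher and lower genes numbered 73 and 70 for the top 10%, 146 and 70 on thinned counts, 52 and 43 with equal weight per cell, 148 and 199 at 10 CPM, 241 and 287 with no minimum, 175 and 103 at a ratio limit looser than 1.5, and 2 and 13 at a ratio of 2. Without the barcodes rich in other markers 16 were lower.

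The S phase ratio was 1.06 for the top 10%, 1.29 on thinned counts and with equal weight per cell, 1.08 with equal weight per rule gene and, turned, 0.983 without Gpr84. The G2 and M phase ratio turned to 1.03 on thinned counts. It was 0.899 at the stricter cell filter, 0.678 for the top 10%, 0.891 for the top 30%, 0.813 without Gpr84, 0.874 with equal weight per cell, 0.889 in the pooled matrix, 0.761 without the deepest 5% and 0.803 without the richest barcode. The homeostatic ratio was 0.927 on thinned counts, 0.918 with equal weight per rule gene, 0.944 without Gpr84, 0.973 with equal weight per cell, 0.967 without mt- and ribosomal protein genes, 0.965 at a median ratio of 1, 0.973 without barcodes rich in other markers, 0.974 without the deepest 5% and 0.965 without the richest barcode.

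Single values also turned. On thinned counts these were S100a4 (0.894), Lrba (0.914), Mki67 (1.44), Top2a (1.38) and Cx3cr1 (1.09). Cxcl10 had 0.845 for the top 10%, 0.861 with equal weight per rule gene and 0.579 without Gpr84. Under the last 2 settings Tmem119 had 0.912 and 0.976 and the Nrf2 list 1.04 and 1.05, and without Gpr84 the disease-associated list had 1.03. The immediate early list had 1.00444 at the stricter filter. The oxidative phosphorylation list had 0.985 for the top 10%, 0.995 without mt- and ribosomal protein genes, 0.992 at a median ratio of 1 and 0.999 without the richest barcode. Without barcodes rich in other markers Ngp had 1.08, Lcn2 1.03 and S100a9 1.05. Among values other than the 6 main ones, 874 moved by less than their counting interval, 289 by more without turning and 21 turned.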
